A study of Mus musculus with 12 samples.

Results

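The tumour necrosis factor (TNF) superfamily comprises the ligands related to TNF and the receptors that bind them. It was followed here in mouse skin after an injection of RNAdjuvant, a vaccine adjuvant in which a non-coding RNA is complexed with a peptide. The members are all genes on the array whose symbol begins with Tnfsf or Tnfrsf, with Tnf, Lta, Ltb, Ltbr, Cd40, Cd40lg, Cd27, Cd70, Fas, Fasl, Eda, Edar and Ngfr. This gave 42 of the 19938 genes measured, 16 ligands and 26 receptors. Each had 1 probe set, a group of probes read as a single value. A further probe set is shared by Tnfsf12, Tnfsf13 and their joint transcript Tnfsfm13, and since it carries 3 symbols no member was named from it.

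Skin was taken from female Balb/c mice in 4 groups of 3: untreated mice, and mice 1.5 h, 6 h or 24 h after RNAdjuvant was placed in the dermis at 25 mg as labelled. The untreated mice received no injection, so the needle and the adjuvant cannot be told apart. The labels call the samples biological replicates. A sample is a whole biopsy, in which fewer cells of a type and less RNA per cell cannot be told apart. The 12 Affymetrix Mouse Gene 1.0 arrays had medians of 5.53 to 5.76 on the log2 scale, and arrays of a group correlated at r = 0.98 to 0.987. The keratinocyte genes Krt5 and Krt14 lay above 11 on all 12 arrays, as the skin label requires. Replicate 1 at 1.5 h and replicate 1 at 6 h carried the lymph node vessel gene Glycam1 at 11.38 and 10.88, against 3.87 to 4.46 on the other arrays, and results that rest on them are given with and without them.

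Ligands of this family are mostly trimers held in the cell membrane, and some, TNF among them, are cut free by proteases. A bound receptor gathers adaptors on its inner side. Receptors with a death domain, such as Fas, can recruit FADD and caspase-8 and start apoptosis, while most others bind TRAF proteins and switch on NF-kB. Decoy receptors bind a ligand without passing on a signal. In skin, EDA and EDAR direct the formation of hair follicles, and TNF is a main inflammatory signal between keratinocytes, mast cells, macrophages and the vessel wall.

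The promoters of members that rose at 6 h are shown first, so that their start regions can be compared. Their courses at the other times differed. Of the 5 members with the largest change among those that passed the test at 6 h, 4 had an entry in the RefSeq table of promoters (build GRCm38.p6, 250 bases before to 50 after the start). Cd40 had none. Each was searched on both strands for the core of the interferon-stimulated response element (ISRE, GAAA repeated after any 2 bases), the gamma-activated site (GAS, TTCNNNGAA) and the NF-kB consensus, with capitals marking a match. The sequences are those of Tnfsf10 (chr3:27316827-27317126, plus strand), Tnf (chr17:35201958-35202257, minus strand), Fas (chr19:34290409-34290708, plus strand) and Tnfrsf14 (chr4:154928028-154928327, minus strand), each 5′ to 3′ on the gene's strand.
Tnfsf10: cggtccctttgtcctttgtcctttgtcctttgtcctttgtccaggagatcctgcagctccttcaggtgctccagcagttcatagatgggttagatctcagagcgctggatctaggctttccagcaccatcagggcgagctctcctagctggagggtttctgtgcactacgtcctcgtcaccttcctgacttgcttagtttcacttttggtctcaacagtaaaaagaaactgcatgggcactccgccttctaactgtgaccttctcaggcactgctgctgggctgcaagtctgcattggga
Tnf: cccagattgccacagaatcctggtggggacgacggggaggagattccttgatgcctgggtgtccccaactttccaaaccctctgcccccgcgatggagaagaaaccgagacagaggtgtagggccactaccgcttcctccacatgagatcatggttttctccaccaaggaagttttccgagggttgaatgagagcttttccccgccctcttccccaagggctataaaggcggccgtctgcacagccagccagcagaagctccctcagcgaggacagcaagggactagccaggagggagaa
Fas: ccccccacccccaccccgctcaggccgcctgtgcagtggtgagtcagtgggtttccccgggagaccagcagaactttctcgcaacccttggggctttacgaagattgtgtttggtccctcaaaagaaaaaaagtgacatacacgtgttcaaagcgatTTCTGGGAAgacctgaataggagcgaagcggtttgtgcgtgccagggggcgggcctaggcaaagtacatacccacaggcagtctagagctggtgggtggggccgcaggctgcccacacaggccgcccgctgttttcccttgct
Tnfrsf14: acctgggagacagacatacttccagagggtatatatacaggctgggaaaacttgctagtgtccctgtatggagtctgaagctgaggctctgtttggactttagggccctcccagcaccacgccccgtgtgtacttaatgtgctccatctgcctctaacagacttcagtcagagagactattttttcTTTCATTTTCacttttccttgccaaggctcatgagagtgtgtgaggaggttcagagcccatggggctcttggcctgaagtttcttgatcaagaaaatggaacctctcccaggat

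Fas held a GAS match, TTCTGGGAA, whose first base lies at -93 from the start. Tnfrsf14 held an ISRE core on the opposite strand, read here as TTTCATTTTC and beginning at -64. The windows of Tnfsf10 and Tnf held none of the 3 motifs, which says only that these exact letters are not in these 300 bases. Across the 32851 promoters in the table, 3.44% held the ISRE core, 8.3% the GAS and 8.46% the NF-kB consensus. Of the 33 members with an entry, 4 held the ISRE core (Tnfrsf14, Tnfrsf17, Tnfrsf1b and Tnfsf13b), 9 the GAS and 4 the NF-kB consensus. These members had 37 promoters, and a match in any of them counted. The member counts are therefore not on the same basis as the shares of promoters. Matches were a description of the letters and were not tested against the expression values.

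The moderated F test of limma asked which genes differed from untreated skin at any of the 3 times. It called 9 of the 42 members (21.4%), against 11.4% of all genes, with 17 members (40.5%) at an unadjusted p under 0.05, against 31.3% of all genes. A call here is a Benjamini-Hochberg adjusted p under 0.05 over all genes. In pairs of groups, 11 members (26.2%) were called in at least 1 of 5 comparisons, against 18.1% of all genes: the ligands Tnfsf10, Tnf, Tnfsf18 and Tnfsf4, and the receptors Fas, Tnfrsf21, Cd40, Tnfrsf14, Tnfrsf12a, Tnfrsf1b and Tnfrsf23. The other 31 were called in none, and their log2 changes from untreated skin lay between -0.33 and 0.65. No filter on low values was applied, so all 42 were tested.

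**Figure D1:**
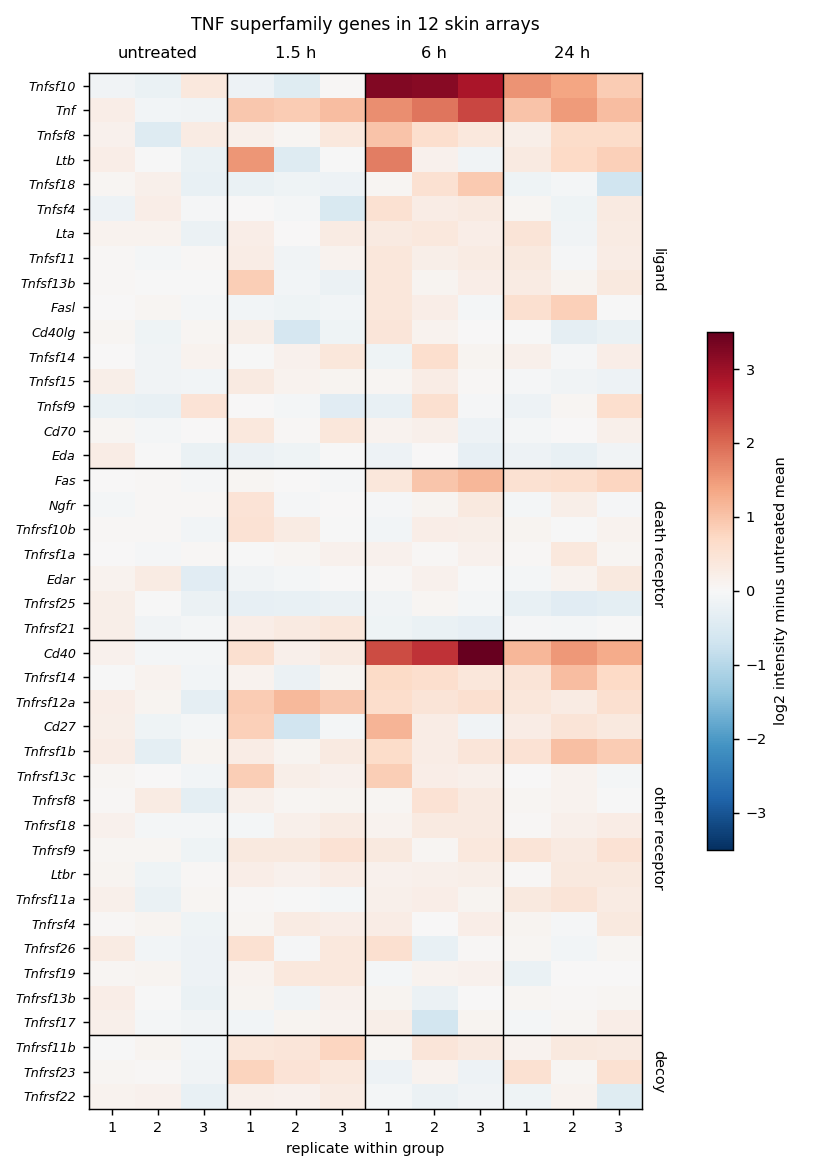
Each row is a member and each column an array, coloured by its log2 intensity minus the mean of the 3 untreated arrays, with rows grouped by role and ordered by the change at 6 h. The columns of the 6 h group are reddest for Tnfsf10, Tnf and Cd40, while Ltb and Cd27 are red in replicate 1 at 1.5 h and at 6 h.

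At 1.5 h 2 members rose, the ligand Tnf and the receptor Tnfrsf12a, and 40 did not pass (4.76% of members, against 2.2% of all genes called, 0.612% higher and 1.59% lower). An unadjusted p under 0.05 was reached by 8 members, against 17.5% of all genes. The median change of the members was 0.18, beside 0.02 for all genes, and 32 of the 42 were above 0. At 6 h 6 members rose and none fell (14.3%, against 6.09% of all genes, 3.38% higher and 2.71% lower), with 14 at an unadjusted p under 0.05, against 23.2% of all genes. They were Tnfsf10, Cd40, Tnf, Fas, Tnfrsf14 and Tnfrsf12a, and the median of all members was 0.19, beside -0.04 for all genes. At 24 h 6 rose and none fell again (14.3%, against 3.36% of all genes, 2.55% higher and 0.808% lower), again with 14 at an unadjusted p under 0.05, against 17.1% of all genes. Tnfrsf1b stood in the place of Tnfrsf12a. The median was then 0.16, beside 0. Members whose values lay wholly above or below the untreated ones numbered 13, 16 and 15 at the 3 times, against 25.1%, 30.8% and 23.3% of all genes. These comparisons share the untreated samples.

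**Figure D2:**
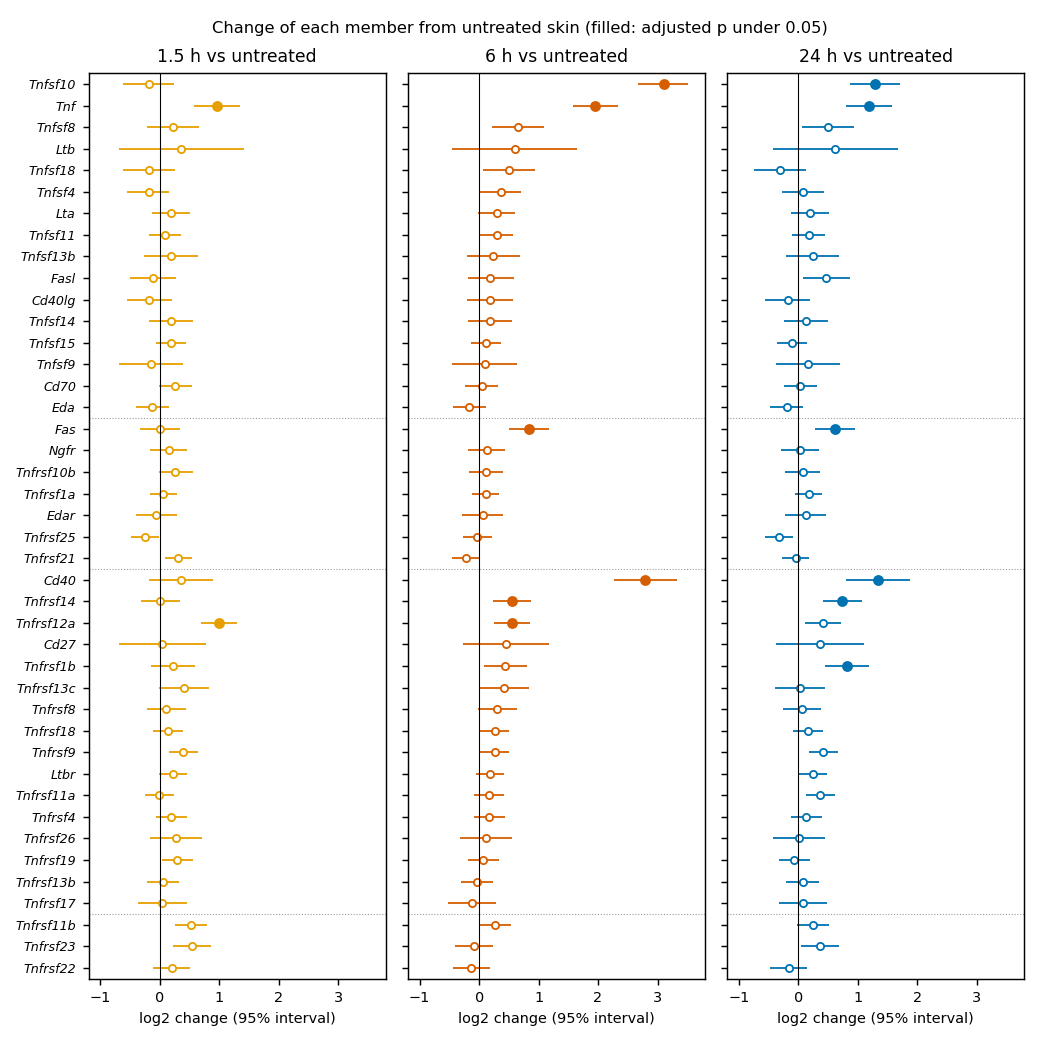
The x axis gives each member's log2 change from untreated skin with its 95% interval at 1.5 h, 6 h and 24 h, and filled points have an adjusted p under 0.05. The filled points at 6 h are Tnfsf10 at 3.1, Cd40 at 2.79, Tnf at 1.95, Fas at 0.83, Tnfrsf14 at 0.56 and Tnfrsf12a at 0.55, and no member is filled below 0.

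Tnfsf10 encodes TRAIL, a ligand that can kill cells through death receptors and whose gene is known to respond to interferon. Its log2 intensity was 5.41, 5.32 and 5.9 in untreated skin and 5.35, 5.11 and 5.59 at 1.5 h. The 6 h arrays gave 8.78, 8.73 and 8.41, and the 24 h arrays 7.12, 6.93 and 6.43. The untreated and 1.5 h groups overlapped in part, all 6 h values stood above all others, and the 24 h values lay between. The change from untreated skin was -0.19 ± 0.2 (SE) at 1.5 h (limma adjusted p = 0.662), 3.1 ± 0.2 at 6 h (adjusted p = 2.22e-07) and 1.28 ± 0.2 at 24 h (adjusted p = 0.00158). Between 6 h and 24 h it fell by 1.81 (adjusted p = 0.000398). Its gain between 1.5 h and 6 h, 9.76-fold, was the 31st largest of all 19938 genes.

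No receptor of TRAIL passed at 6 h against untreated skin. Tnfrsf10b, the death receptor for TRAIL in the mouse, measured 5.63, 5.63 and 5.5 in untreated skin and 5.49, 5.81 and 5.8 at 6 h, and the groups overlapped. Its change at 6 h was 0.11 (95% interval -0.17 to 0.4, limma adjusted p = 0.629), so a rise such as that of its ligand lay outside the interval. Tnfrsf23 and Tnfrsf22 encode decoy receptors for TRAIL that stand next to each other in the genome. Tnfrsf23 measured 6.49, 6.47 and 6.31 in untreated skin, 7.19, 6.89 and 6.8 at 1.5 h, 6.23, 6.54 and 6.25 at 6 h, and 6.94, 6.48 and 6.95 at 24 h. All values at 1.5 h were above those of untreated skin and of 6 h. It fell by 0.62 between 1.5 h and 6 h (limma adjusted p = 0.0181), and its difference from untreated skin at 1.5 h was 0.54 (adjusted p = 0.0836, and 0.0462 with median centring). The fall lost its call without replicate 1 at 1.5 h (adjusted p = 0.0679), without replicate 3 at 6 h (adjusted p = 0.0538) and without both Glycam1-high libraries (adjusted p = 0.134). Tnfrsf22 differed by -0.33 between the same times (adjusted p = 0.144). Tnfrsf11b, osteoprotegerin, is a soluble decoy for RANKL that also binds TRAIL. It measured 6.56, 6.67 and 6.48 in untreated skin and 6.97, 6.99 and 7.31 at 1.5 h. These groups did not overlap, and the difference of 0.52 missed the threshold (adjusted p = 0.0539). It passed in 8 of 23 other settings, among them the replicate block, all 3 rescalings and array weights (adjusted p from 0.0256 to 0.171 over the settings).

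Tnf, the founding ligand and a mediator of fever, vessel activation and leukocyte recruitment, was already higher at the earliest time. It measured 5.99, 5.65 and 5.63 in untreated skin, 6.69, 6.64 and 6.82 at 1.5 h, 7.39, 7.63 and 8.09 at 6 h, and 6.75, 7.23 and 6.83 at 24 h. No treated value overlapped the untreated ones, and the 6 h values were above all the rest. At 1.5 h 3 of 10 neutrophil markers rose as well (S100a9 by 2.33, Retnlg by 1.4 and Cxcr2 by 1.32), as did Cd14 among 8 monocyte and macrophage markers (0.91). The other 7 neutrophil markers did not pass at 1.5 h. Among these, S100a8 measured 9.77, 9.38 and 9.55 in untreated skin and 10.35, 8.77 and 9.12 at 1.5 h. At 24 h S100a8 gave 8.84, 8.82 and 9.05, all below the untreated values. Il1r2 lay between 9.03 and 9.48 on all arrays. Neutrophil markers rose in 3 of 10 cases at 6 h and at 24 h too. Their mean level was 5.53 to 5.88 in untreated skin. It was 6.85 and 6.7 in the Glycam1-high libraries at 1.5 h and 6 h, and 6.16 to 6.46 on the other treated arrays. The part of neutrophils in the values of Tnf was not tested. The log2 change of Tnf was 0.96 ± 0.18 (SE) at 1.5 h, 1.95 ± 0.18 at 6 h and 1.19 ± 0.18 at 24 h, with limma adjusted p = 0.0181, 6.81e-06 and 0.00117. It rose further by 0.99 between 1.5 h and 6 h (adjusted p = 0.00365) and fell by 0.77 between 6 h and 24 h (adjusted p = 0.0346). At 1.5 h the adjusted p was 0.0816 and 0.083 when untreated replicate 2 or 3 was left out, and 0.0506 when 1.5 h replicate 2 was. The later fall did not pass when 6 h replicate 2 or 3 or 24 h replicate 1 or 3 was left out (0.109, 0.102, 0.0985 and 0.137), or with only its own groups fitted (0.0929).

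Tnf lies between Ltb and Lta in the genome, with no other protein-coding gene between them, and neither neighbour passed in any comparison. Lta encodes lymphotoxin alpha, which binds the same receptors as TNF when secreted. It measured 4.92, 4.92 and 4.6 in untreated skin and 5.12, 5.18 and 5.03 at 6 h, a difference of 0.3 (95% interval -0.02 to 0.61, limma adjusted p = 0.241). Ltb, lymphotoxin beta, anchors lymphotoxin alpha in the membrane and is made mainly by lymphocytes. Its values were 6.36, 6.12 and 5.91 in untreated skin, 7.68, 5.68 and 6.12 at 1.5 h, 7.91, 6.28 and 6 at 6 h, and 6.44, 6.83 and 6.97 at 24 h. High values at 1.5 h and 6 h were those of the Glycam1-high libraries. Without them its change at 6 h went from 0.6 to 0.01 (adjusted p = 0.473 and 0.977), and at 24 h it remained 0.62, with adjusted p = 0.561 in the full fit and 0.0718 without them. Ltbr, the receptor of membrane lymphotoxin on stromal cells, stood between 7.28 and 7.77 on all arrays.

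Of the receptors of TNF, Tnfrsf1b passed at 24 h and Tnfrsf1a at no time, and the difference between the receptors was not tested. Tnfrsf1a carries a death domain and is found on most cells. Its values lay between 9.75 and 10.18, and its changes were 0.06, 0.11 and 0.17 at 1.5 h, 6 h and 24 h (limma adjusted p = 0.804, 0.559 and 0.46). Tnfrsf1b lacks the death domain and is found chiefly on leukocytes and endothelium. It measured 7.43, 6.83 and 7.26 in untreated skin, 7.43, 7.26 and 7.48 at 1.5 h, 7.82, 7.43 and 7.6 at 6 h, and 7.68, 8.21 and 8.05 at 24 h. Every 24 h value was above those of untreated skin. The 6 h values did not overlap the untreated ones either, but the lowest 6 h value and the highest untreated one both round to 7.43. Its change was 0.44 ± 0.17 (SE) at 6 h (adjusted p = 0.141) and 0.81 ± 0.17 at 24 h (adjusted p = 0.0171). Leaving out untreated replicate 2, or 24 h replicate 2 or 3, ended the call at 24 h, with adjusted p = 0.0797, 0.0685 and 0.0745. At 24 h natural killer and cytotoxic cell markers rose in 8 of 9 cases, and their mean level was 6.73 to 7.15, against 4.72 to 4.79 in untreated skin. Monocyte and macrophage markers rose in 2 of 8 cases, with a mean level of 9.13 to 9.48, against 8.58 to 9.1. Neutrophil markers rose in 3 of 10 cases and endothelial markers in 0 of 5. The part of these cells in this result was not tested.

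**Figure D3:**
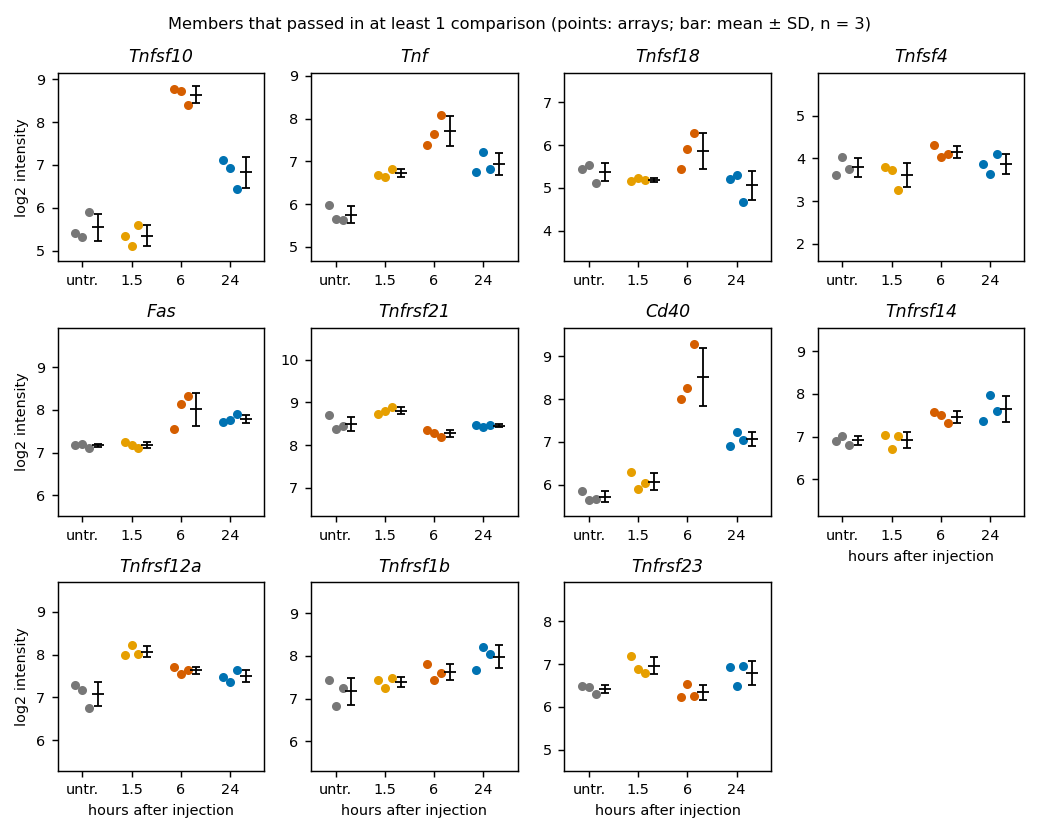
Log2 intensity of the 11 members called in at least 1 comparison is plotted by group, with a point for each array and a bar for the mean ± SD of 3 arrays; each panel spans the same range. Tnfsf10, Tnf and Cd40 are highest at 6 h, Tnfrsf12a is highest at 1.5 h, and Tnfrsf1b and Tnfrsf14 are highest at 24 h.

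Cd40, the receptor through which T cells activate dendritic cells, macrophages and B cells, had the second largest change among the members. It measured 5.86, 5.64 and 5.66 in untreated skin, 6.29, 5.89 and 6.03 at 1.5 h, 7.99, 8.26 and 9.29 at 6 h, and 6.89, 7.24 and 7.03 at 24 h. Its 4 groups stood apart from each other, in the order untreated, 1.5 h, 24 h, 6 h. The difference at 1.5 h, 0.36 ± 0.25 (SE), did not pass (limma adjusted p = 0.489). At 6 h the change was 2.79 ± 0.25 (adjusted p = 6.12e-06), and at 24 h 1.34 ± 0.25 (adjusted p = 0.00751). It fell by 1.46 between 6 h and 24 h (adjusted p = 0.00821). Its 6 h values had an SD of 0.68, the widest of its groups, with replicate 3 highest. Without both Glycam1-high libraries the change at 6 h was 3.06 (adjusted p = 4.12e-06). Its ligand Cd40lg, a product of activated T cells, measured between 2.98 and 4 on all arrays, and its change at 6 h was 0.18 (95% interval -0.2 to 0.57, adjusted p = 0.553). The mean level of Cd40lg stood at percentile 11.3 of all genes. Without detection p-values it is not known whether Cd40lg was detected.

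Fas, the death receptor of Fas ligand, was called higher at 6 h and 24 h and not at 1.5 h. It measured 7.19, 7.2 and 7.12 in untreated skin, 7.24, 7.18 and 7.12 at 1.5 h, 7.56, 8.14 and 8.32 at 6 h, and 7.71, 7.76 and 7.91 at 24 h. Untreated and 1.5 h values lay between 7.12 and 7.24, and all later values were above them. The change was 0.83 ± 0.15 (SE) at 6 h (limma adjusted p = 0.00552) and 0.62 ± 0.15 at 24 h (adjusted p = 0.0458). The call at 24 h was lost without any untreated, 1.5 h or 24 h library and without 6 h replicate 2 (adjusted p from 0.0549 to 0.161), and with the replicate number as a block (adjusted p = 0.0509). That at 6 h was kept without each library in turn (adjusted p up to 0.0322), and without both Glycam1-high libraries the change was 1.05.

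Fasl, the ligand on cytotoxic lymphocytes, gave 3.94, 4 and 3.85 in untreated skin and 4.5, 4.77 and 3.92 at 24 h. Its mean level was low, at percentile 17 of all genes, and there were no detection p-values. Of the 24 h arrays 2 stood above the untreated ones and the other within them. The difference was 0.47 (95% interval 0.08 to 0.86, limma adjusted p = 0.196), and without 24 h replicate 3 it was 0.71 (adjusted p = 0.0195). The cytotoxic markers Gzmb and Gzma were raised on all 3 of those arrays, at 9.56 to 9.71 and 8.41 to 9.12. Their part in the values of Fasl was not tested.

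Tnfrsf12a encodes Fn14, the receptor of TWEAK, which is induced in injured and regenerating tissue. Its values were 7.3, 7.18 and 6.76 in untreated skin, 7.98, 8.22 and 8.01 at 1.5 h, 7.7, 7.54 and 7.65 at 6 h, and 7.47, 7.37 and 7.64 at 24 h. It was the receptor with the largest change at 1.5 h, and its values at each treated time were all above the untreated ones. Its difference of -0.44 between 1.5 h and 6 h did not pass (adjusted p = 0.0523), and did so in 7 of 23 other settings (lowest 0.0168). The change was 0.99 ± 0.14 (SE) at 1.5 h (limma adjusted p = 0.00421), 0.55 ± 0.14 at 6 h (adjusted p = 0.0337) and 0.41 ± 0.14 at 24 h (adjusted p = 0.142). The call at 1.5 h was kept without each library in turn (adjusted p up to 0.0238). Leaving out untreated replicate 2 or 3 or 6 h replicate 1, 2 or 3 ended the call at 6 h (adjusted p = 0.0535, 0.129, 0.0782, 0.066 and 0.0918). So did leaving out both Glycam1-high libraries (0.086), the replicate block (0.0505), median centring of the arrays (0.0592) and fitting only the groups compared (0.0711). The TWEAK gene itself, Tnfsf12, shares its probe set with Tnfsf13 and was given no value. The mean level of 7 glandular epithelium markers moved with the group at 1.5 h, from 5.5 to 5.71 in untreated skin to 7.42 to 8.62. The 6 h arrays gave 8.24, 5.59 and 5.49 and the 24 h arrays 7.62, 7.24 and 7.75, and 3, 0 and 2 of the 7 passed at the 3 times (2 had an unadjusted p under 0.05 at 6 h). The mean of 7 skeletal muscle markers was 10.95 to 11.06 in untreated skin and 12.07, 12.2 and 11.05 at 1.5 h, and none of them passed there by limma (2 had an unadjusted p under 0.05). The part of either tissue in the values of Tnfrsf12a was not tested.

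Tnfrsf14, HVEM, is a receptor of LIGHT and lymphotoxin alpha and also binds the lymphocyte inhibitor BTLA. It measured 6.89, 7.02 and 6.81 in untreated skin, 7.04, 6.71 and 7.01 at 1.5 h, 7.58, 7.5 and 7.31 at 6 h, and 7.36, 7.98 and 7.61 at 24 h. All 6 later values stood above the 6 earlier ones. The change was 0.56 ± 0.15 (SE) at 6 h (limma adjusted p = 0.046) and 0.74 ± 0.15 at 24 h (adjusted p = 0.0136), and between 1.5 h and 6 h it rose by 0.54 (adjusted p = 0.0328). At 6 h the call was lost without any untreated or 6 h library, without 1.5 h replicate 1 or 3, without 24 h replicate 3 (adjusted p from 0.0515 to 0.153), without both Glycam1-high libraries (0.112), with the replicate block (0.064) and with median centring (0.0532). At 24 h leaving out untreated replicate 3 ended the call (adjusted p = 0.0668). Between 1.5 h and 6 h this held for 1.5 h replicate 2 and 6 h replicate 1 or 2 (0.126, 0.0843 and 0.108), for both Glycam1-high libraries (0.102) and for median centring (0.0591). Its ligand gene Tnfsf14, LIGHT, had log2 changes of 0.18, 0.18 and 0.12 at the 3 times (adjusted p = 0.64, 0.544 and 0.771).

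Tnfrsf21, the death receptor DR6, fell between 1.5 h and 6 h, as did the decoy Tnfrsf23. It measured 8.7, 8.37 and 8.44 in untreated skin, 8.73, 8.81 and 8.89 at 1.5 h, 8.36, 8.28 and 8.2 at 6 h, and 8.47, 8.43 and 8.48 at 24 h. Its 1.5 h values were the highest and the 6 h values the lowest of the 4 groups, with no overlap between any treated times. It fell by 0.53 between 1.5 h and 6 h (limma adjusted p = 0.00664, up to 0.0278 without each library in turn). Against untreated skin the differences of 0.31 at 1.5 h and -0.22 at 6 h did not pass (adjusted p = 0.146 and 0.221).

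Among the ligands that costimulate T cells, Tnfsf18 and Tnfsf4 passed between consecutive times and not against untreated skin. Tnfsf18, the ligand of GITR, measured 5.45, 5.54 and 5.12 in untreated skin, 5.15, 5.22 and 5.19 at 1.5 h, 5.44, 5.9 and 6.28 at 6 h, and 5.21, 5.3 and 4.68 at 24 h. Its 6 h values were above those at 1.5 h and 24 h and overlapped the untreated ones. It rose by 0.69 between 1.5 h and 6 h (limma adjusted p = 0.0407) and fell by 0.81 between 6 h and 24 h (adjusted p = 0.0471). Both calls were fragile: the rise was lost without untreated replicate 1, any 1.5 h library or 6 h replicate 2 or 3 (adjusted p from 0.053 to 0.135), and the fall without any untreated or 1.5 h library, 6 h replicate 2 or 3 or 24 h replicate 1 or 3 (adjusted p from 0.0542 to 0.19). The rise also missed the threshold after centring, quantile or loess scaling (0.0538, 0.0845 and 0.069) and with only its groups fitted (0.0547), and the fall with the replicate block (0.0573), quantile or loess scaling (0.0683 and 0.0625) and only its groups fitted (0.118).

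Tnfsf4, the ligand of OX40 and next to Tnfsf18 in the genome, measured 3.61, 4.03 and 3.74 in untreated skin, 3.79, 3.73 and 3.27 at 1.5 h, 4.31, 4.04 and 4.1 at 6 h, and 3.87, 3.63 and 4.1 at 24 h. Its mean level stood at percentile 14.6 of all genes, and without detection p-values it is not known whether it was detected. Its 6 h values were above those of untreated skin and of 1.5 h, by little. It rose by 0.55 between 1.5 h and 6 h (limma adjusted p = 0.0431). The call was lost without untreated replicate 3, 1.5 h replicate 2 or 3, any 6 h library or 24 h replicate 1 (adjusted p from 0.0545 to 0.139), without both Glycam1-high libraries (0.102) and with the replicate block (0.0591). It was also lost after centring, quantile or loess scaling (0.0982, 0.195 and 0.11) and with only its groups fitted (0.0592). The receptors of these ligands, Tnfrsf18 (GITR) and Tnfrsf4 (OX40), are neighbours as well. They had log2 changes of 0.26 and 0.17 at 6 h (adjusted p = 0.21 and 0.409).

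Further costimulatory members did not pass, with Tnfsf8 and Tnfrsf9 nearest to the threshold. Tnfsf8, the ligand of CD30, measured 4.39, 3.8 and 4.55 in untreated skin and 5.25, 4.85 and 4.61 at 6 h. The groups did not overlap, and the difference of 0.65 had a limma adjusted p of 0.0756. Its receptor Tnfrsf8 differed by 0.3 (adjusted p = 0.242). Tnfrsf9, known as 4-1BB and induced on activated T and natural killer cells, measured 5.42, 5.43 and 5.19 in untreated skin and 5.79, 5.67 and 5.86 at 24 h, without overlap (difference 0.42, adjusted p = 0.0639). At 1.5 h it already measured 5.69, 5.69 and 5.85, also without overlap (difference 0.39, adjusted p = 0.0974). The 24 h difference passed in 2 of 22 other settings, cyclic loess and array weights (lowest adjusted p = 0.0444). Its ligand Tnfsf9 spread from 5.16 to 5.92 in untreated skin alone and differed by 0.16 at 24 h (95% interval -0.38 to 0.7). Tnfsf15, the ligand TL1A, differed by 0.19, 0.12 and -0.11 at the 3 times (adjusted p = 0.434, 0.558 and 0.686). Tnfrsf25, its death receptor, was the member furthest below untreated skin at 24 h, at 5.42, 5.29 and 5.36 against 5.89, 5.68 and 5.49 (difference -0.33, adjusted p = 0.137).

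Ltb, Cd27, Tnfrsf13c and Tnfsf13b, singled out after their values were seen, were highest in the Glycam1-high libraries. So were Cd40lg and Tnfrsf26. Cd40lg measured 3.78 and 4 there, against 2.98 to 3.69 on the other arrays, and Tnfrsf26 5.24 and 5.28, against 4.44 to 5.07. Without both libraries the change of Cd40lg at 6 h went from 0.18 to 0.06 and that of Tnfrsf26 from 0.11 to -0.11. Neither passed the test either way. Cd27, a costimulatory receptor of T and memory B cells, measured 6.16 and 6.52 in those libraries and 4.65 to 5.78 in the other 10. Tnfrsf13c, the BAFF receptor of B cells, measured 7.41 in both and 6.47 to 6.78 in the others. Tnfsf13b, which encodes BAFF itself, measured 6.06 and 5.6 against 5.01 to 5.54. In the same libraries the mean level of 9 B cell markers was 6.26 and 5.98, against 4.4 to 4.7 elsewhere, and that of 10 T cell markers 6.51 and 6.53, against 5.61 to 6.06. The other receptors of the BAFF system were not highest there: Tnfrsf13b (TACI) lay between 5.21 and 5.65 with its highest value in untreated replicate 1, and Tnfrsf17 (BCMA) between 4.62 and 5.51 with its highest in 24 h replicate 3. Without both libraries the change at 1.5 h turned from 0.36 to -0.23 for Ltb, from 0.04 to -0.36 for Cd27 and from 0.19 to -0.14 for Tnfsf13b, none of which passed the test either way. The change of Tnfsf13b at 6 h went from 0.24 to 0.17, that of Cd27 at 6 h from 0.45 to 0.08 and that of Tnfrsf13c from 0.42 to 0.21 (limma adjusted p without them = 0.4, 0.829 and 0.29). Cd70, the ligand of CD27, lay between 3.82 and 4.4.

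**Figure D4:**
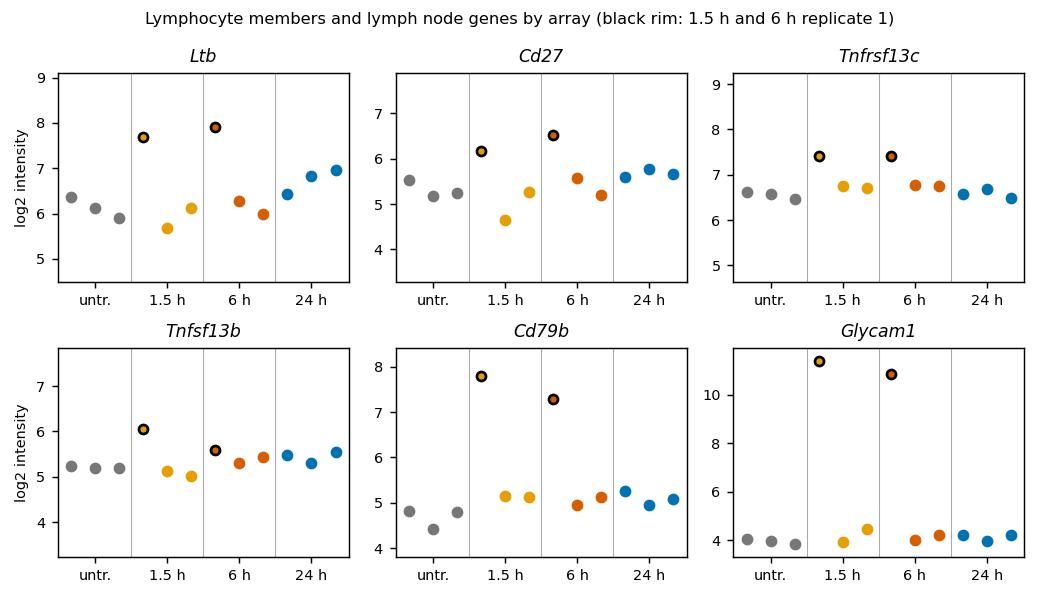
Log2 intensity of Ltb, Cd27, Tnfrsf13c and Tnfsf13b and of the B cell gene Cd79b and the lymph node vessel gene Glycam1 is plotted for each of the 12 arrays, with a black rim on replicate 1 at 1.5 h and at 6 h. Those arrays have Glycam1 at 11.38 and 10.88 and Cd79b at 7.8 and 7.29, and they hold the 2 highest values of Ltb, Cd27, Tnfrsf13c and Tnfsf13b.

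Members with roles in bone, hair, nerve and skin appendages did not pass in any comparison. Tnfsf11 (RANKL) differed by 0.3 at 6 h (95% interval 0.02 to 0.57, limma adjusted p = 0.185), and its receptor Tnfrsf11a (RANK) by 0.36 at 24 h (adjusted p = 0.108). Eda and its receptor Edar, which shape hair follicles, lay between 5.59 and 6.14 and between 4.43 and 5.18. The hair follicle keratin Krt25 varied among the untreated arrays from 6.51 to 10.74, and Eda was 5.88 and Edar 5.12 in the array where it was highest. Tnfrsf19 (TROY), a receptor of embryonic skin and hair follicles, differed by 0.29 at 1.5 h (adjusted p = 0.231). Ngfr, the neurotrophin receptor p75, lay between 6.39 and 6.93, and Tnfrsf26 between 4.44 and 5.28.

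Between 1.5 h and 6 h 7 members rose and 2 fell (21.4%, against 13.3% of all genes, 5.47% higher and 7.8% lower). Values did not overlap in 14 members, against 33% of all genes, and 11 had an unadjusted p under 0.05, against 29.9%. This split depended on the scaling of the arrays: it was 4 higher and 5 lower with arrays centred on their medians, where 23.1% of all genes were called, and 5 and 3 after quantile normalization, where 13.4% were. With centring the members' share, 21.4%, was thus below that of all genes. Centring moved the median change of all genes in this comparison from -0.03 to -0.17. Between 6 h and 24 h 4 members fell and none rose (9.52%, against 3.44% of all genes, 2.03% higher and 1.41% lower), with 6 at an unadjusted p under 0.05, against 20.6%. Values did not overlap in 10 members, against 23.5% of all genes. The 4 members called lower were Tnfsf10, Cd40, Tnfsf18 and Tnf. The count of members called was 2 without 6 h replicate 2 or 3 or 24 h replicate 1 or 3. In those fits 0.712%, 1.52%, 1.87% and 0.943% of all genes were called. Of all 42, the highest group mean was at 1.5 h for 12, at 6 h for 16, at 24 h for 12 and in untreated skin for 2. This was not counted over all genes, and it includes the 31 members called in no comparison.

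The genes that act below these receptors were counted from lists chosen with earlier results of these data known. Beside these counts, 0.612%, 3.38% and 2.55% of all genes were called higher at 1.5 h, 6 h and 24 h. Of 27 measured adaptors, kinases and ubiquitin enzymes of TNF receptor signalling, 0 passed at 1.5 h by limma (3 had an unadjusted p under 0.05), 6 rose at 6 h and 3 at 24 h, with medians of -0.01, 0.1 and 0.09. The 6 at 6 h were Mlkl, the executor of necroptosis (7.97-fold), Birc3, a ubiquitin ligase bound to TRAF2 (2.09-fold), Rnf31, the catalytic subunit of the linear ubiquitin complex (1.92-fold), Traf1 (1.9-fold), the apoptotic protease Casp8 (1.74-fold) and its inhibitor Cflar (1.55-fold). Mlkl, Casp8 and Rnf31 were those still called at 24 h. Cflar and Birc3 fell between 6 h and 24 h, by 0.51 and 0.58.

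Genes that TNF induces through NF-kB, with the NF-kB subunits, rose in 3 of 23 cases at 1.5 h, in 13 at 6 h and in 5 at 24 h, with medians of 0.26, 0.55 and 0.38. This list holds genes that interferon and RNA receptors induce as well. Ccl2, Il6, Cxcl2, Tnfaip6, Cxcl1 and Tnfaip3 led it at 6 h, at 23.5-, 12.3-, 4.04-, 3.5-, 2.9- and 2.89-fold. Tnfaip3 encodes A20, the feedback inhibitor of TNF signalling, and it fell by 1.01 between 6 h and 24 h (limma adjusted p = 0.0152). Of 13 genes that act on the production or shedding of TNF, or on the stability of its mRNA, 2 rose at 6 h. They were Zfp36, whose product destabilises Tnf mRNA (1.93-fold), and Litaf, named as a factor of Tnf transcription (1.42-fold). Zfp36l1, a relative of Zfp36, fell by 0.5 at 24 h. Adam17, the protease that releases TNF, did not pass at any time. Of 13 genes of apoptosis below death receptors, Bid (1.82-fold) and Apaf1 (1.48-fold) rose at 6 h, and Bid (1.55-fold) and Bak1 (1.76-fold) at 24 h.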

How the data were processed

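The authors deposited log2 intensities. The submitters' processing notes name RMA and Affymetrix Expression Console 1.1. They were tested as deposited, with no detection p-values and no filter. The table holds 35556 probe sets on 12 arrays. The platform annotation listed 23410 of them, and 21789 had 1 gene symbol. A gene with several probe sets was read from the one with the highest mean, giving 19938 genes. One limma model (version 3.58.1, R 4.3.3; lmFit, eBayes) held all 12 arrays. Benjamini-Hochberg adjustment ran across the genes in each of 5 comparisons. Tests were two-sided, and an exact permutation test of 3 against 3 cannot go below p = 0.1. The number of arrays limits the precision. The steps were tested on simulated data. The members, the lists, the motifs and the alternatives were chosen with earlier results of these data known. Members called in a comparison are given in every sample, the others by range or beside their partner, and up to 6 called genes are named per list.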

Additional observations from a re-analysis of the deposited data

Results flagged for a closer look

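These members changed between consecutive times while standing on opposite sides of untreated skin at those times. The difference between the times was tested in limma, over all genes. Tnfsf10 differed by 3.29 between 1.5 h and 6 h (adjusted p = 2.28e-07), Tnfsf18 by 0.69 (adjusted p = 0.0407) and Tnfsf4 by 0.55 (adjusted p = 0.0431), each from below to above the untreated mean. Tnfrsf21 differed by -0.53 (adjusted p = 0.00664) and Tnfrsf23 by -0.62 (adjusted p = 0.0181), from above to below it. Tnfsf18 then differed by -0.81 between 6 h and 24 h (adjusted p = 0.0471). Of these members, Tnfsf10 at 6 h was the case whose difference from untreated skin passed at the times named.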

How the results depend on the processing

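Of 27 calls of a member in a comparison, 15 were kept and 12 lost in at least 1 of 23 other settings, and none of these turned direction. The 15 include every call of Tnfsf10 and Cd40. Asking also for a log2 change of at least 1 left 0, 3, 3, 2 and 2 members at 1.5 h, 6 h, 24 h, 6 h against 1.5 h and 24 h against 6 h, and 3 in the F test (limma, 8 members at an unadjusted p under 0.05 at 1.5 h). The share of all genes was not counted under this rule, nor for the F test in the other settings. Those counts of members therefore have no share to be read against. With arrays centred on their medians 4 members were called at 1.5 h, against 1.92% of all genes. With only the groups compared in the fit 2 were called between 6 h and 24 h, against 1.24% of all genes. Leaving out each library in turn gave 1 to 3, 4 to 6, 4 to 6, 6 to 10 and 2 to 5 members, and 6 to 9 in the F test. Over those fits the share of all genes called was 0.487% to 2.99%, 3.57% to 6.84%, 2.12% to 3.79%, 4.76% to 14.8% and 0.712% to 4.4%. At 1.5 h the count was 1 without untreated replicate 2 or 3 or 1.5 h replicate 2, where 0.487%, 0.532% and 0.632% of all genes were called. Without both Glycam1-high libraries the counts were 2, 4, 6, 6 and 4, and 9 in the F test. In the 5 comparisons 0.993%, 6.12%, 4.31%, 7.18% and 4.93% of all genes were then called. With the replicate block the counts were 3, 4, 5, 8 and 3, against 2.22%, 5.7%, 3.36%, 13.2% and 3.09% of all genes, and 9 in the F test. Deviations from the group means correlated at -0.22 to 0.33 between samples of the same replicate number (18 pairs). Between samples of different numbers they correlated at -0.28 to 0.24 (36 pairs), and 6 of 12 samples correlated best with their own number. These values do not settle whether the numbers mark pairs. Only genes above the median level left 20 members to test. With 3 arrays a group, the precision is limited, and the cause of lost calls was not tested.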
